A study of Mus musculus with 7 samples.

Results

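Binding of LEF1 and TCF1 far from genes was examined in naive CD8 T cells, in regions lying far from every protein-coding gene in which all 6 CUT&RUN libraries had a peak. CUT&RUN uses an antibody to direct a nuclease to a protein on chromatin, so that the DNA around it is cut out and sequenced. The cells were CD8+/Ly5.1+/CD44-/CD62L+ TCR-P14 T cells of wild-type genotype (WT) from mouse spleen, sorted as naive and fixed with PFA. Peak lists of 3 libraries made with anti-LEF1 and 3 made with anti-TCF1 were compared, and an input control from another gate (CD8+/Ly5.1-/CD44+) was not analysed here. The mice's age and strain are not given in the labels, and nothing says that replicates came from separate animals or sorts. Each p-value between LEF1 and TCF1 thus measures how far these libraries differ, and that may be technical. A p-value between classes of regions measures only how steadily these libraries, over the same regions, agreed in direction. All cells carried the same transgenic T cell receptor, P14, and no library without LEF1 or TCF1 was compared, so the specificity of either antibody was not tested.

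Peaks on chromosomes 1 to 19 and X were merged where they overlapped by at least 1 bp, which gave 38215 regions. Of these, 10887 had a peak in all 6 lists. The 911 regions described here are those of the 10887 whose midpoint lay outside every protein-coding gene of GRCm38.p6 and more than 50 kb from the nearest one. They were thus selected on measured peaks, and that all 6 libraries had a peak in them is the rule and not a finding. Each region is named by the protein-coding genes that flank it on the left and on the right, and a flanking gene is a position, not a shown target.

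LEF1 and TCF1 (gene Tcf7) are closely related DNA-binding proteins of the HMG-box family. They bind the same short motif, bend DNA, work with beta-catenin in Wnt signalling and with Groucho (TLE) corepressors, and are needed for T cell development and for the naive and stem-like states of CD8 T cells. Elements far from genes can act on a gene through looping of the DNA, and the regulators of blood cells are known for such distal enhancers. RUNX and ETS proteins and AP-1, other DNA-binding families of T cells, are known to share elements with them.

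The regions whose DNA could be printed are those at the start of a long non-coding RNA (lncRNA), since "far from a protein-coding gene" does not mean far from every gene. Of the 911 regions, 316 (34.7%) overlapped an annotated gene that is not protein-coding, 275 of them a lncRNA, and 595 overlapped no annotated gene. Of the merged regions, 35 reached a RefSeq start window (250 bases before to 50 after a start), and these held 43 windows of 35 lncRNA genes. The summits in such a region could lie away from the start, as at A630001O12Rik (-1127 to -1107 bases from it). RefSeq sequence of GRCm38.p6 is shown for 7 of them, 5′ to 3′ on the strand of the RNA, with matches to the TCF/LEF motif (CTTTGAT or CTTTGAA) and the RUNX motif (TGTGGT), read on both strands, in capitals. The first 4 were chosen because they lie wholly inside a region and hold a TCF/LEF match, and they are the best-ranked that do so.
Gm13982: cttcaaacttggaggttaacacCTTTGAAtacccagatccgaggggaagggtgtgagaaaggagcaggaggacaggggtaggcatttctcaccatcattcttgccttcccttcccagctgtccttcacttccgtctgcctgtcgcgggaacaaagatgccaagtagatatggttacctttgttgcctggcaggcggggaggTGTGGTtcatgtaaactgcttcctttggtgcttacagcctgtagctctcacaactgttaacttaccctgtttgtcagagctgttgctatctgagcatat
Gm40746: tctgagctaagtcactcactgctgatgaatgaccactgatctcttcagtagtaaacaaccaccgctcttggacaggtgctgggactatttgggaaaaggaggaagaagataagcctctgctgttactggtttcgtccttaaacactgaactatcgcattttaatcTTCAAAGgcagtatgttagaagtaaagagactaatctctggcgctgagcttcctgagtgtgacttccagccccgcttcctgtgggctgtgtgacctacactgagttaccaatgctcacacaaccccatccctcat
Gm35425: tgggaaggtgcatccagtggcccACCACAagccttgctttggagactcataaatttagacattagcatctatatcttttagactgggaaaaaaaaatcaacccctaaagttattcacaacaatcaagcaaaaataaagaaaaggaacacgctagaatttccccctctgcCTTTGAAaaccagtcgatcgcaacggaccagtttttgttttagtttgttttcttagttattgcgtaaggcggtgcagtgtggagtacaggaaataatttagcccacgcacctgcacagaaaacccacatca
Gm15232: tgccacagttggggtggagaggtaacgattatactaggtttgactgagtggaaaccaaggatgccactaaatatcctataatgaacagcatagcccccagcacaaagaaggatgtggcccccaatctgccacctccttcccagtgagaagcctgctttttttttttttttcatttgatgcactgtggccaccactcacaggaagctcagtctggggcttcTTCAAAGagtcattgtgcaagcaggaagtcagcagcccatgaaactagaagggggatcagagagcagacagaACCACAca

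The Gm13982 window (chr2:117417648-117417947, minus strand) lay between Rasgrp1, which activates Ras below the T cell receptor, and Thbs1. The Gm40746 window (chr10:96180672-96180971, plus strand) lay between Eea1 and Btg1, an antiproliferative gene of quiescent lymphocytes. The Gm35425 window (chr3:35318187-35318486, plus strand) lay between Sox2 and Atp11b, and the Gm15232 window (chrX:167102057-167102356, minus strand) between Egfl6 and Tmsb4x, the gene of the actin-binding peptide thymosin beta 4. At Gm40746 the strongest summits of the 6 libraries stood 20 to 4 bases before the start and the centre of the motif match 82 bases before it. At Gm15232 the summits stood from 66 bases before the start to the start itself, around a match 27 bases before it. At Gm13982 the summits lay 190 to 254 bases past the start, whereas the match lay 225 bases before it, and at Gm35425 they lay 23 to 142 bases past the start, with the match 78 bases before it.

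The other 3 windows are shown because their regions ranked higher in the TCF1 libraries than in the LEF1 libraries (tests below). None of them holds a TCF/LEF match.
Gm36486: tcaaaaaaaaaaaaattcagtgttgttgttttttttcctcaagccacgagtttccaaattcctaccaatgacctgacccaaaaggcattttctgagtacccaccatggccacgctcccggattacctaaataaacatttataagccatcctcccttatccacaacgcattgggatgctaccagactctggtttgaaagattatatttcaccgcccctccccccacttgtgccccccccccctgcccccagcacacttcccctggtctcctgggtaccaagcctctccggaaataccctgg
D130051D11Rik: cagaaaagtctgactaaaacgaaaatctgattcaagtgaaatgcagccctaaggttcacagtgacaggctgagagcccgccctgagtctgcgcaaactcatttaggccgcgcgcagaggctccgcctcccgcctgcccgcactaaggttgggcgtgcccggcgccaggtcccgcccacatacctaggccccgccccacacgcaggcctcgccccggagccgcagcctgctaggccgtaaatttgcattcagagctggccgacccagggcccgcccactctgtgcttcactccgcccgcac
Gm33195: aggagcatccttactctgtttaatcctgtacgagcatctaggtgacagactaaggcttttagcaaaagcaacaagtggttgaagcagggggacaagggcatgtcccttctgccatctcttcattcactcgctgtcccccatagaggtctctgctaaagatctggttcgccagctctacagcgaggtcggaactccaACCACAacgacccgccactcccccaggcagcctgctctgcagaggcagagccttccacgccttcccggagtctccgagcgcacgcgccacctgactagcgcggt

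The Gm36486 window (chr17:29437530-29437829, minus strand) lay between Fgd2 and Pim1, a serine/threonine kinase gene induced by cytokines. The D130051D11Rik window (chr15:85634346-85634645, plus strand) lay between Wnt7b and Ppara, and the Gm33195 window (chr13:43864305-43864604, plus strand) between Cd83 and Jarid2. Among all 43 windows, 8 (18.6%, 95% exact binomial interval 8.39 to 33.4) held a TCF/LEF match, against 10.6% of 11574 windows of lncRNA starts and 8.65% of 32817 windows of all starts. The form CTTTGAT alone stood in 3 of the 43 (6.98%, interval 1.46 to 19.1), against 4.67% of lncRNA start windows. A RUNX match stood in 19 of the 43 (44.2%, interval 29.1 to 60.1), against 20.1% and 16.8%. An AP-1 match (TGANTCA) stood in 18.6%, against 9.31% and 7.81%, and an ETS match (AGGAAG) in 39.5%, against 37.1% and 35.4%. Some windows of 1 gene overlap, so the shares were also taken with the first window of each gene. They were then 7 of 35 (20.0%) for TCF/LEF and 15 of 35 (42.9%) for RUNX, against 10.4% and 20.0% of lncRNA genes. The windows compared with were not matched for distance from protein-coding genes or for base composition, so the sets differ in more than the peaks. These shares describe letters in fixed windows and not sites of binding, and the intervals here and elsewhere cover counting error only.

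The lists differed in length, and the rule leaned on the shortest. The LEF1 lists held 27654, 37632 and 23695 peaks on the chromosomes used, and the TCF1 lists 25616, 22894 and 11418. TCF1 replicate 3, with 11418, had 938 peaks in far-intergenic DNA, of which 99.8% lay in the 911 regions, while the share was 28.1 to 50.1% in the other libraries. Without TCF1 replicate 3 the rule gave 1630 regions, and without any other library 911 or 912. The 911 regions are therefore close to the far-intergenic peaks of that library. Read totals were not given, and whether its short list comes from depth, antibody or cells was not tested. Its values are given beside each result that moves with it.

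Far-intergenic regions were found in all 6 lists less often than regions at gene ends and a little more often than the other classes. Of 3339 far-intergenic regions found in any list, 911 (27.3%, 95% exact binomial interval 25.8 to 28.8) were in all 6, 719 in 5 and 834 in only 1. The share in all 6 was 24.96% for near-intergenic regions (outside genes, 1 to 50 kb away), 25.4% for regions inside genes and 38.4% for regions within 1 kb of a gene end. Of the genes listed for CD8 T cells, 8 of 8 had regions of all 6 lists within 10 kb (among them Cd8a, Cd3e and Lck). Neighbouring genes can share a region, so these genes are not separate checks. Such regions stood at 2 of 5 B cell genes (Ms4a1, Pax5 and Ebf1 at 0), 1 of 4 myeloid and 1 of 3 erythroid genes. Peaks mark bound DNA and not expression, so this is a check on the cells only as far as LEF1 and TCF1 sit at genes in use. In these bulk samples weaker binding in all cells and binding in fewer cells cannot be told apart.

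The deposited fold enrichment of a peak is the authors' ratio of its signal to the local background. It depends on the library, so each region was ranked by its highest fold enrichment among the 10887 regions within each library, from 0 (strongest) to 100 (weakest), and the rank is a percentile. The median fold enrichment of the 911 regions was 25.2, 35.1 and 21.0 in LEF1 replicates 1 to 3 and 23.1, 20.1 and 10.3 in TCF1 replicates 1 to 3. These far-intergenic regions ranked above the other classes in every library. Their median rank was 39.5, 39.6 and 40.6 in the LEF1 libraries and 43.7, 46.1 and 46.0 in the TCF1 libraries. Over the 6 libraries the mean was 42.6 ± 3.10 (SD, n = 6), against 50.7 ± 0.311 for all other regions of the 10887, a difference of -8.08 (exact sign-flip permutation test, two-sided, p = 0.031, the smallest that 6 libraries allow).

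The gap was widest against regions at gene ends, at -16.8 (range over libraries -25.2 to -6.83). It was -3.45 (range -4.72 to -1.13) against near-intergenic regions and -4.40 (range -5.76 to -2.01) against regions inside genes. Each of these had p = 0.031 in the same exact permutation test, and with 4 such tests the Benjamini-Hochberg value stayed at 0.031. With any 1 library left out the difference from all other regions kept its direction (-8.84 to -7.39), and p was 0.0625, the smallest that 5 libraries allow. With every list held to its 11418 strongest peaks by −log10 q, the length of the shortest, it was -5.39 (exact sign-flip permutation test, two-sided, p = 0.031). Of the 911 regions, 134 (14.7%) were among the strongest 10% of the 10887 by mean rank, compared with 11.0% of near-intergenic regions, 11.1% of those inside genes and 6.73% of those at gene ends.

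**Figure D1:**
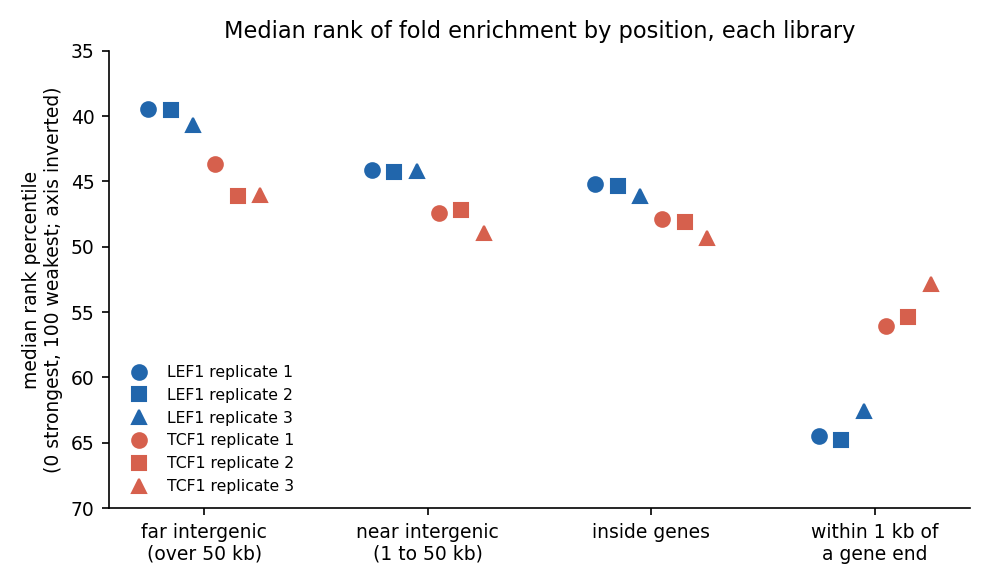
Median rank percentile of fold enrichment (vertical axis, inverted, 0 strongest) of the regions found in all 6 lists, for 4 classes of position and each of the 6 libraries (blue LEF1, red TCF1). Far-intergenic regions have the best median in each library, from 39.5 to 46.1, and regions at gene ends the weakest, from 52.9 to 64.8.

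Within the 911, distance from the nearest gene had no steady relation to rank. The median distance was 108 kb (range 50.003 to 1069), with 415 regions at 50 to 100 kb, 320 at 100 to 200 kb, 149 at 200 to 500 kb and 27 farther. The median of the mean ranks in these bins was 45.0, 43.9, 39.9 and 53.9, a description over regions and not a test. The regions had a median width of 713 bp (quartiles 561 and 930.5), and 831 of them held 1 peak per list. At the rule's threshold, the members just inside were Cd47/Bbx (50.003 kb), Cabcoco1/Tmem26 (50.032 kb) and Glrp1/Arl4c (50.521 kb), and just outside were regions between Map3k1 and Ankrd55 (49.81 kb), Btg3 and D16Ertd472e (49.896 kb) and Otud7a and Klf13 (49.938 kb). Mean ranks were 59.8, 0.657 and 28.2 inside and 9.64, 80.8 and 22.3 outside.

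The 12 best-ranked regions stood near the top of every library. The best lay between S1pr1, the receptor for sphingosine-1-phosphate that lets T cells leave lymph nodes, and Dph5 (chr3:115815103-115816714), 101 kb from S1pr1 and 72.2 kb from Dph5. Its fold enrichment was 167, 225 and 142 in LEF1 replicates 1 to 3 and 186, 170 and 96.8 in TCF1 replicates 1 to 3. The library values differ in scale, but the rank of this region was 0.0321 to 0.0873 in all of them, and the 6 strongest summits lay within 3 bp.

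The second lay between Myb, a transcription factor of blood progenitors and T cells, and Hbs1l (chr10:21234786-21236659), a stretch known to hold distal enhancers of Myb in blood cells. Its fold enrichment was 163, 214 and 153 in LEF1 and 160, 151 and 79.5 in TCF1. The third lay 179 kb from Myc, the gene of the growth factor-induced transcription factor c-Myc, on the side of Gsdmc and inside the lncRNA gene Pvt1 (chr15:62169062-62170300). It had values of 150, 210 and 159 in LEF1 and 167, 146 and 75.2 in TCF1. These 3 regions stood at mean ranks of 0.047, 0.063 and 0.080, and the LEF1 and TCF1 ranks overlapped at S1pr1/Dph5 and Myc/Gsdmc, whereas the 3 LEF1 ranks of Myb/Hbs1l (each 0.0505) were all stronger than its TCF1 ranks (0.0689 to 0.0873).

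Others lay between Rnf19a and Ankrd46 (chr15:36395785-36397259), Prl5a1 and Sox4 (chr13:28551270-28552256), Phlda1 and Krr1 (chr10:111578190-111579271) and Tle4 and Psat1 (chr19:14695054-14695957). Sox4 encodes another HMG-box factor and lay 397 kb away, and Tle4 encodes a Groucho corepressor that binds LEF1 and TCF1. The region near Tle4 had fold enrichments of 117, 162 and 102 in LEF1 and 108, 103 and 54.9 in TCF1, and its rank was 0.381 to 0.482 in LEF1 and 0.611 to 0.767 in TCF1. The ninth to twelfth lay between Satb1 and Kcnh8 (chr17:52162114-52163572), Cabcoco1 and Tmem26 (chr10:68673210-68674218), Adcy8 and Efr3a (chr15:65726551-65727807) and Gm5148 and Ankrd50 (chr3:38279942-38281679). Satb1 encodes a chromatin organiser of T cells, and its region had values of 104, 153 and 99.2 in LEF1 and 109, 101 and 55.1 in TCF1.

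All 72 ranks of these 12 regions (12 regions in 6 libraries) lay between 0.0321 and 1.20. None of the 12 passed the limma test of a rank difference between LEF1 and TCF1 described below. The lowest adjusted p was 0.0998, for Cabcoco1/Tmem26, whose ranks were 0.308 to 0.427 in LEF1 and 0.684 to 1.20 in TCF1. The summits of the 6 libraries lay within 42 bp of each other in each of the 12, and on 1 base at Prl5a1/Sox4 and at Cabcoco1/Tmem26.

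**Figure D2:**
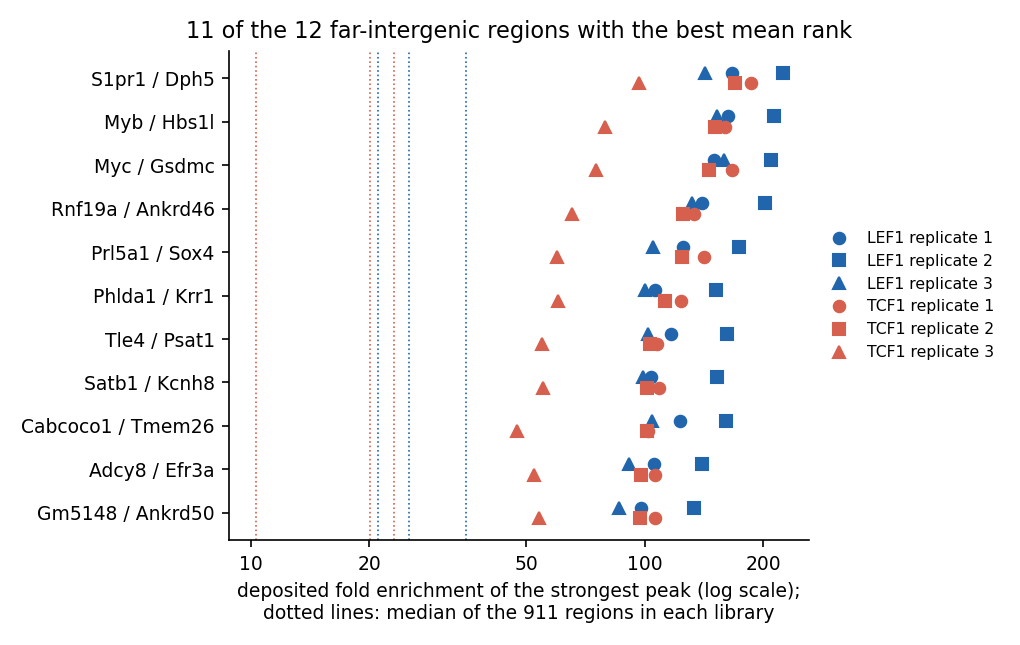
Deposited fold enrichment of the strongest peak (horizontal log axis) of 11 of the 12 far-intergenic regions with the best mean rank, by library (blue LEF1, red TCF1, shape for the replicate number), with dotted lines at each library's median over the 911 regions. The values run from 47.5 to 225, TCF1 replicate 3 has the lowest value in each row and LEF1 replicate 2 the highest, as in their medians of 10.3 and 35.1.

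The genes beside the regions were counted in lists grouped by role. Flanking was counted only for genes that border a gap of more than 100 kb between protein-coding genes, where such a region can lie. Of all 4506 such genes, 642 flanked a region, which is 14.2%. Among T cell transcription factors 12 of 17 did, among homing, survival and cytokine receptors 6 of 9, among growth and cell cycle genes 7 of 8, and among inhibitors of signalling 5 of 6. Effector and exhaustion genes stood at 4 of 12 and Wnt pathway genes at 3 of 12, while transcription factors of development, which border wide gaps too, stood at 5 of 30. Genes of other blood lineages stood at 3 of 4, as high a share as the lists of T cell genes, with 4 regions among them. The lists were chosen with results of these data known, no test was made on them, and a wider gap has more room for a region.

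Of the T cell transcription factors, Foxo1, a regulator of naive T cell homing and survival, flanked 17 regions, Satb1 14, Lef1 itself 11, Ets1 10 and Gata3, a factor of T cell commitment, 7. Ets1 had its strongest region 169 kb away (chr9:32925676-32927537), with fold enrichments of 93.5, 127 and 71.8 in LEF1 and 86.5, 63.7 and 38.3 in TCF1. The 11 regions beside Lef1 lay 53.0 to 209 kb from the gene, toward Rpl34. The strongest of them (chr3:130936311-130937466) had values of 45.9, 66.8 and 43.6 in LEF1 and 41.8, 41.7 and 20.3 in TCF1, at a mean rank of 12.1. None of the 11 passed the limma test between the factors.

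The best regions of the other members of this list were beside Ikzf2 at a mean rank of 4.44, Bcl6 at 5.08, Gata3 at 7.20, Tox at 10.7, Bach2 at 11.6, Runx1 at 29.2 and Bcl11b at 31.8. Bcl11b, needed for T lineage commitment, had 6 regions up to 726 kb away. No region flanked Foxp1, Tcf12, Runx3, Tox2 or Zeb1, which also border gaps of more than 100 kb.

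Among receptors, S1pr1 flanked 8 regions and Tgfbr2, which encodes a receptor for TGF-beta, 10. The strongest Tgfbr2 region lay 163 kb away and overlapped the lncRNA gene D730003K21Rik (chr9:116337600-116338932), with fold enrichments of 94.6, 123 and 76.6 in LEF1 and 98.1, 77.6 and 45.0 in TCF1. Ifngr1 and Cxcr4, receptors for interferon gamma and for a homing chemokine, flanked 6 each, and Itga4 and Cd28 flanked 2 each. The best regions of Ifngr1 and Cxcr4 had mean ranks of 2.72 and 40.8.

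Genes of effector and memory cells also flanked strong regions, though only 4 of the 12 that border a gap of more than 100 kb flanked any. Prdm1, Gzmb, Klrg1, Pdcd1, Ctla4, Maf, Nr4a2 and Nr4a3 flanked none. Ifng, the gene of interferon gamma, flanked 9 regions 88.4 to 320 kb away toward Dyrk2. The strongest (chr10:118633095-118634035) had values of 93.4, 133 and 88.5 in LEF1 and 98.9, 82.3 and 49.7 in TCF1, at a mean rank of 1.15. Another of the 9 lay at the start of Ifngas1, an antisense lncRNA near Ifng, at a mean rank of 46.5. Eomes, a T-box factor of memory and effector cells, flanked 6 regions, the best at a mean rank of 3.95. Id2 flanked 9, the best at 10.04, which lay 863 kb away and nearer to Rnf144a. Zeb2 flanked 2, but they lay 3205 and 3211 kb from it, nearer to Acvr2a. The best Ifng, Eomes and Id2 regions each had an adjusted limma p of 0.745 or above between the factors.

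Of the growth genes, Myc flanked 12 regions, 7 toward Gsdmc and 5 toward A1bg, and 5 of the 12 overlapped Pvt1. Next to the third-ranked region stood another in Pvt1 (chr15:62164559-62165414) at a mean rank of 1.47, while the other 10 ranged from 22.1 to 96.2. Pim1, Ccnd2, Mycn, Lmo2 and Lmo4 flanked 1 to 3 each. Among inhibitors of signalling, Tnfaip3, which restrains NF-kappaB, flanked 12, Cblb, a ubiquitin ligase that restrains T cell activation, 6, Dusp6 5, and Dusp4 and Dusp5 4 each. The best Cblb region lay 356 kb away (chr16:51674775-51676437), at 95.6, 128 and 91.0 in LEF1 and 101, 87.5 and 49.1 in TCF1.

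The 3 Wnt pathway genes were Tle3 with 18 regions, Ctnnb1, the gene of beta-catenin, with 7, and Tle4 with 3. The best Tle3 region (chr9:61707480-61708534) had fold enrichments of 96.4, 132 and 77.1 in LEF1 and 86.6, 81.5 and 38.7 in TCF1. The best Ctnnb1 region (chr9:120795899-120797122) had 81.1, 107 and 72.4 in LEF1 and 89.6, 85.7 and 45.5 in TCF1. Axin2, Nkd1, Lgr5 and the rest of that list either flanked none or bordered no such gap. The transcription factors of development that flanked a region were Sox4, Sox9, Sox5, Sox2 and Tbx3.

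The regions were gathered in few gaps. Of 2768 gaps over 100 kb between protein-coding genes, 338 (12.2%) held any of the 911, and 232 of the 281 gaps over 1 Mb held none. The median length of gaps with a region was 341 kb and of those without 214 kb. A single region stood in 171 gaps, whereas 55 gaps with 5 or more held 448 regions (49.2%) and 15 gaps with 10 or more held 187 (20.5%). Of the regions, 526 (57.7%) had another within 20 kb, where the density over all far-intergenic DNA was 0.968 regions per Mb of 941 Mb.

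The fullest gap lay between Gm36448 and Dad1 on chromosome 14, with 19 regions over 1047 kb, all inside Tcra, the locus of the T cell receptor alpha chain. The next lay between Tbc1d1 and Gm38457 on chromosome 5, with 17 regions over 199 kb, in 2 groups: 7 at 135 to 168 kb from Tbc1d1 and 10 at 248 to 333 kb. Its best regions had mean ranks of 2.24, 2.96, 3.21 and 5.48. The gap between Eea1 and Btg1 held 16 regions over 336 kb, of which the strongest (chr10:96370574-96371843) had fold enrichments of 94.7, 135 and 85.1 in LEF1 and 90.1, 96.4 and 47.9 in TCF1. Another 6 lay on the other side of Btg1.

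Between Foxo1 and Cog6 lay 15 regions over 519 kb, the strongest 298 kb from Foxo1 (chr3:52647311-52648552) with 78.8, 112 and 71.5 in LEF1 and 76.0, 71.7 and 39.1 in TCF1, and with all 6 summits on 1 base. Between Satb1 and Kcnh8 lay 13 over 615 kb, which besides the ninth-ranked region included a second strong one 635 kb from Satb1 (chr17:52468034-52469098, mean rank 4.10). Between Stt3b and Gadl1 lay 13 over 238 kb, with the best at a mean rank of 1.88 (chr9:115611307-115612453). In each of these 6 gaps strong and weak regions stood side by side, the weakest at mean ranks of 82.7 to 93.2. The number of the regions with a better mean rank in LEF1 was 16 of 19, 15 of 17, 13 of 16, 9 of 15, 12 of 13 and 11 of 13 in the order given, where 640 of all 911 (70.3%) were on that side. Over all regions found in all 6 lists, gene ends included, the share on that side was 53.5%. Regions of 1 gap are neighbours and not replicates of each other.

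**Figure D3:**
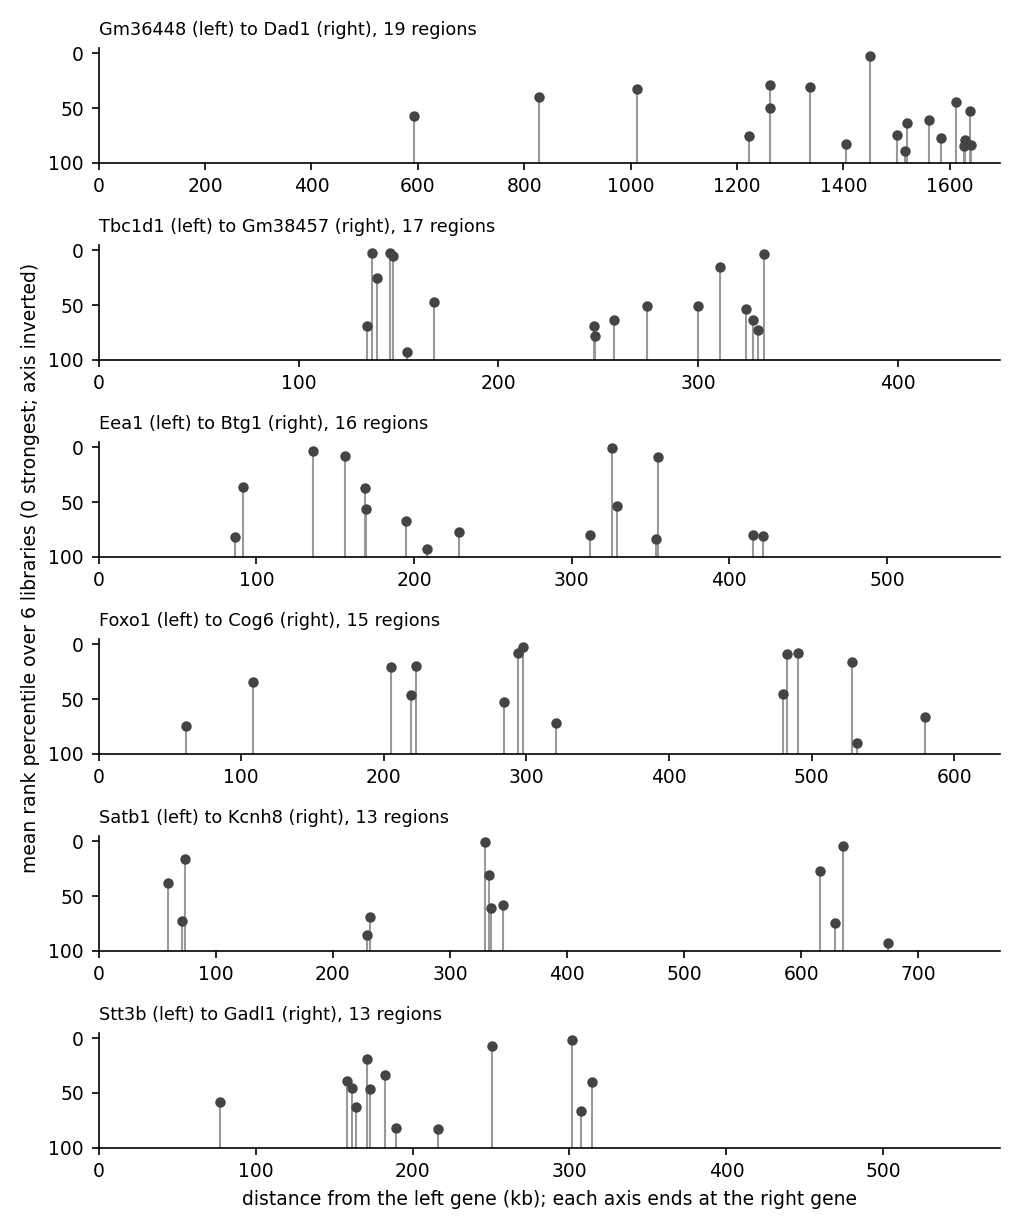
The 6 gaps between protein-coding genes that hold most of the far-intergenic regions, with distance from the left gene in kb (horizontal) and the mean rank percentile over 6 libraries (vertical, inverted, 0 strongest); each point is 1 region. The regions stand in groups within each gap, and each gap has at least 1 region at a mean rank under 3 and 1 at 82.7 or weaker.

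Antigen receptor loci count as intergenic here because their gene segments are not annotated as protein-coding. They held 33 of the 911 regions: 19 in Tcra, 6 in Tcrb and 8 in Igh, and none in Tcrg, Igk or Igl. Of the 33, 18 overlapped an annotated gene segment. In Tcra the strongest (chr14:53991108-53991937) lay at a mean rank of 2.43, with fold enrichments of 86.3, 114 and 71.6 in LEF1 and 78.8, 69.3 and 37.7 in TCF1, and overlapped no segment. Segments at 9 of the other Tcra regions were Trav11n, Trav14n-3, Trav14-1, Trav14-3, Trdv2-1 and the joining segments Traj37, Traj40, Traj47, Traj48 and Traj49. The P14 receptor is known to use a V alpha 2 chain, the family of the Trav14 segments. In Tcrb the strongest of 3 segment regions lay at Trbv12-1 (mean rank 17.6) and in Igh at Ighv1-12 (29.3).

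Variable segments come in near-identical copies, and how the authors treated reads that fit several places is not given in the sources used here, so the values at these segments are uncertain. The 5 regions farthest from a protein-coding gene were 3 in Igh (chr12:114615226-114616156, chr12:114587127-114587611 and chr12:115193506-115194025, at 1069, 1041 and 854 kb), 1 beyond Myc (chr15:62824783-62825622, 835 kb) and 1 at Trav14n-3 (chr14:53369765-53370181, 829 kb). They had mean ranks of 29.3, 54.9, 38.4, 85.6 and 39.8. Left out, the antigen receptor loci changed the class's difference in rank between LEF1 and TCF1 (below) from -5.38 to -4.91.

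LEF1 and TCF1 were then compared, to ask whether far-intergenic regions stand higher in one of them. As a class they ranked higher in the LEF1 libraries, and the contrast was widest against gene ends. The LEF1 libraries' medians averaged 39.9 ± 0.650 and those of TCF1 45.3 ± 1.38 (SD, n = 3 each), a difference of -5.38, and the groups did not overlap (exact permutation test, two-sided, p = 0.1, the smallest that 3 against 3 libraries allow). Ranks are relative, and regions at gene ends ranked higher in TCF1 (52.9 to 56.1) than in LEF1 (62.6 to 64.8), which moves the other classes the opposite way. Near-intergenic regions also ranked higher in LEF1 (44.2 to 44.3) than in TCF1 (47.2 to 48.9). So did regions inside genes (45.2 to 46.1 in LEF1, 47.9 to 49.3 in TCF1), so the direction is not particular to far-intergenic regions. Measured against gene ends, the far-intergenic lead was -24.1 ± 1.86 in LEF1 and -9.51 ± 2.79 in TCF1 (SD, n = 3 each; difference -14.5, exact permutation p = 0.1, two-sided).

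Against regions inside genes the lead was -5.65 ± 0.140 and -3.15 ± 1.09 (difference -2.50, exact permutation p = 0.1, two-sided). Against near-intergenic regions it was -4.32 ± 0.661 and -2.58 ± 1.33 (SD, n = 3 each). There the groups overlapped, since TCF1 replicate 1 at -3.73 was beyond LEF1 replicate 3 at -3.55 (difference -1.73, exact permutation p = 0.2, two-sided). The share of peaks of a list that were far-intergenic was 8.60 to 8.79% in LEF1 and 8.22 to 8.39% in TCF1 (difference 0.375 percentage points, exact permutation p = 0.1, two-sided).

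Region by region, limma was fitted to the normal scores of the ranks of all 10887 regions, with Benjamini-Hochberg adjustment over all of them and a threshold of 0.05. Of the 911, 31 (3.40%) ranked higher in LEF1, where the share over all regions was 3.12%, and 12 (1.32%) ranked higher in TCF1, where it was 5.92%. The first share is thus near the background, and the second is below it. Near-intergenic regions and those inside genes were called for LEF1 at 3.92% and 3.85%, and for TCF1 at 1.497% and 2.57%. Regions at gene ends were called for LEF1 at 1.59% and for TCF1 at 14.4%. All 3 LEF1 ranks were stronger than all 3 TCF1 ranks in 225 of the 911 (24.7%, against 17.4% of all regions). The reverse held in 58 (6.37%, against 17.5%). Near-intergenic regions leaned the same way, at 21.0% and 10.2%, and so did regions inside genes, at 20.5% and 10.7%. At gene ends the reverse held in 34.0%, which raises that share over all regions. The tilt toward LEF1 is thus not particular to far-intergenic regions, though it was widest in them. The median difference in mean rank was -3.16 over the 911 and -0.511 over all 10887.

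With a library left out the calls were fewer, and least so without TCF1 replicate 3. In place of 43, limma called 7, 10 and 13 of the 911 without LEF1 replicates 1, 2 and 3, and 22, 20 and 39 without TCF1 replicates 1, 2 and 3. A fit with fewer libraries also has less power, whichever is left out.

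**Figure D4:**
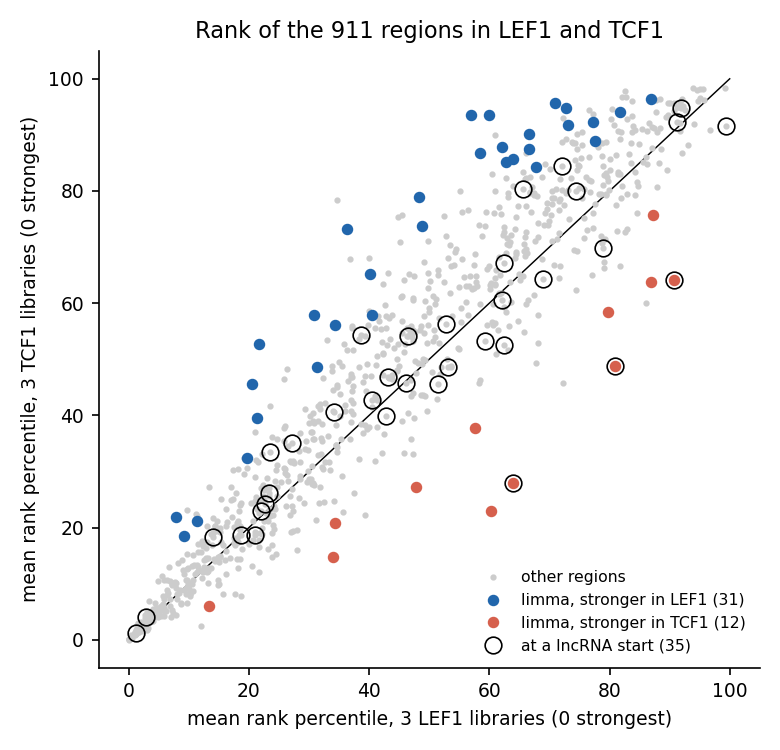
Mean rank percentile of each of the 911 regions over the 3 LEF1 (horizontal) and the 3 TCF1 libraries (vertical), 0 strongest, with the line of equal rank. Blue and red points are the 31 and 12 regions past the limma threshold, and open circles the 35 at a lncRNA start. Above the line, on the LEF1 side, lie 640 regions (70.3%, against 53.5% of all regions found in all 6 lists, gene ends included).

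The largest differences toward LEF1 that passed the test were at 4 regions. Between Mapk10 and Ptpn13 (chr5:103360454-103361470) the ranks were 35.1, 42.7 and 31.1 in LEF1 and 69.1, 79.9 and 70.6 in TCF1 (limma, adjusted p = 0.0114). At Trav14-3 in Tcra (chr14:53762924-53763311), where copies make values uncertain, the fold enrichments were 19.9, 29.3 and 14.6 in LEF1 and 11.4, 9.22 and 4.83 in TCF1. Its ranks were 51.1 to 65.1 in LEF1 and 90.2 to 96.2 in TCF1, with no overlap (difference in normal score 1.36 ± 0.158 SE, limma, adjusted p = 0.00703).

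Between Erbb4 and Ikzf2, the gene of the transcription factor Helios (chr1:69241678-69242158), the fold enrichments were 20.7, 26.1 and 13.8 in LEF1 and 11.1, 8.80 and 5.14 in TCF1. The ranks were 52.1 to 69.2 in LEF1 and 91.1 to 95.4 in TCF1 (difference in normal score 1.27 ± 0.151 SE, limma, adjusted p = 0.00704). Between Eea1 and Btg1 (chr10:96213959-96214440) the ranks were 27.8, 18.8 and 18.5 in LEF1 and 58.9, 52.4 and 46.7 in TCF1 (limma, adjusted p = 0.0156). A neighbour of the last (chr10:96214759-96215390) had the largest difference of all, -43.8, and did not pass (limma, adjusted p = 0.101).

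Toward TCF1 the 4 largest were the 3 lncRNA starts printed above and a region between Hmga2, the gene of an architectural DNA-binding protein, and Msrb3 (chr10:120616474-120617251). At the last the ranks were 61.4, 60.7 and 58.6 in LEF1 and 15.0, 15.97 and 37.7 in TCF1 (limma, adjusted p = 0.0288). At Fgd2/Pim1, the Gm36486 start, the fold enrichments were 18.02, 22.5 and 15.7 in LEF1 and 31.9, 25.1 and 14.4 in TCF1. The ranks were 60.3 to 69.7 in LEF1 and 25.3 to 32.1 in TCF1 (difference in normal score -0.942 ± 0.114 SE, limma, adjusted p = 0.00757). At Wnt7b/Ppara, the D130051D11Rik start, the ranks were 74.1 to 85.1 in LEF1 and 39.5 to 56.1 in TCF1 (limma, adjusted p = 0.0211), and at Cd83/Jarid2, the Gm33195 start, 86.7 to 95.7 and 50.1 to 71.2 (limma, adjusted p = 0.0383). Of 9 other settings (2 other rankings, a replicate block and 6 fits without 1 library), the regions at Trav14-3, Erbb4/Ikzf2 and Fgd2/Pim1 passed in 9, Mapk10/Ptpn13 in 8, the Eea1/Btg1 region in 7, Wnt7b/Ppara in 6, Hmga2/Msrb3 in 3 and Cd83/Jarid2 in 1.

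**Figure D5:**
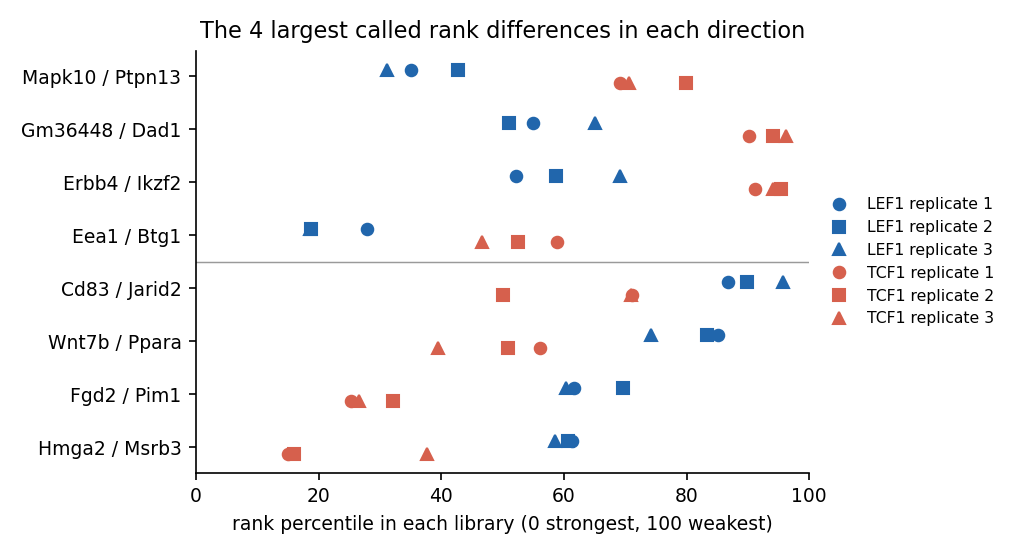
Rank percentile in each library (horizontal, 0 strongest) of the 4 regions with the largest difference toward LEF1 (upper rows) and the 4 toward TCF1 (lower rows) among those past the limma threshold. The LEF1 (blue) and TCF1 (red) values do not overlap in any row, which the choice of rows favours.

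Regions at lncRNA starts had nearly equal median ranks in both factors, in a comparison added after the data were seen. The 35 regions that reach a start window, some with summits away from the start, had a median rank of 48.5 ± 1.46 in LEF1 and 48.2 ± 1.11 in TCF1 (SD, n = 3 each; exact permutation p = 0.8, two-sided). The other 876 had 39.5 ± 0.801 and 45.1 ± 1.42 (SD, n = 3 each; exact permutation p = 0.1, two-sided). The starts thus trailed the other regions by 8.998 ± 2.19 in LEF1 and by 3.05 ± 1.02 in TCF1, and the difference of 5.95 between the factors gave the smallest p possible (exact permutation p = 0.1, two-sided). Without TCF1 replicate 3 it was 5.37, with p = 0.2 in the same exact permutation test. Of the 35, limma called 3 (8.57%) toward TCF1, where the share over all regions was 5.92%. All 3 TCF1 ranks were stronger than all 3 LEF1 ranks in 6 of the 35, a share near the 17.5% over all regions, and the reverse held in 3 of them, against 17.4%.

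The strongest summits of the 6 libraries lay close together in most of these regions. The distance between the outermost of the 6 had a median of 46 bp (quartiles 24 and 106) in the 911 regions and of 50 bp in the other regions found in all lists. In 661 regions all 6 summits lay within 100 bp, in 73 within 10 bp and in 18 on 1 base. The median distance between 2 libraries was 10 to 16 bp within a factor (mean 13.3 over 6 pairs) and 13 to 18 bp between factors (mean 15.2 over 9 pairs), a difference of 1.89 bp (p = 0.1, one-sided, by exact permutation of the 10 ways to split the libraries, which cannot give less). The ranges overlapped. The difference was 1.08 bp without LEF1 replicate 1 (exact permutation p = 0.2, one-sided) and 0.750 bp without LEF1 replicate 3 (exact permutation p = 0.4, one-sided). It was 2.92 bp without TCF1 replicate 2 (exact permutation p = 0.1, one-sided). Peaks of the 911 regions were wider in LEF1, at 616 ± 51.7 bp against 488 ± 132 bp in TCF1 (SD, n = 3 each; difference 128 bp, exact permutation p = 0.1, two-sided). TCF1 replicate 3 had the narrowest, 338 bp, and the difference was 52.8 bp without it (exact permutation p = 0.4, two-sided) and 98.2 bp without LEF1 replicate 2 (exact permutation p = 0.5, two-sided). In the other regions found in all 6 lists the median widths were 538, 628 and 543 bp in LEF1 and 574, 531 and 324 bp in TCF1, so TCF1 replicate 3 was the narrowest there too and the groups overlapped.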

How the data were processed

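The measurements are CUT&RUN peaks, 3 lists for LEF1 and 3 for TCF1, grouped by the sample labels. Per the submitters' processing notes, the authors worked on GRCm38.p6 with MACS3 3.0.3, Bowtie2 2.4.4, Trim Galore 0.6.6, deepTools 3.5.1, FastQC 0.12.1 and Picard. The peak options, the control and the read totals are each not given in the sources used here, so depth is unknown and the number of peaks per list stands in its place. Each library had its own deposited list, with a score per peak, a fold enrichment (ratio of signal to local background), −log10 p and −log10 q values and a summit offset, all as deposited by the authors.

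Intervals on chromosomes 1 to 19 and X were merged at an overlap of at least 1 bp, and midpoints were placed against 21627 protein-coding of 49550 annotated RefSeq genes. Antigen receptor gene segments are not protein-coding there. Each region took its highest fold enrichment per library, converted to a rank percentile. Library medians were compared with exact permutation tests, and normal scores of the ranks with limma 3.58.1 (R 4.3.3), with Benjamini-Hochberg adjustment over 10887 regions. On simulated data limma recovered 98.5% of 200 planted differences with 11 false calls. The planted differences were larger than most of those called here, and the noise was equal in all regions. Recovery of smaller differences was not tested. Python 3.11.15, numpy 2.4.6, pandas 2.3.3, scipy 1.17.1 and matplotlib 3.10.9 were used. Regions named are the 12 best by mean rank, the 5 farthest, those of the 6 densest gaps, the 4 largest called each way, up to 6 genes per list and 3 on each side of 50 kb. Other genes of a list, further regions of a named gap and regions at antigen receptor segments or lncRNA starts were named after their values were seen. Of these, 1 of the 12 best regions and 1 gene of a list are counted but not reported by name here. The members and the gene lists were chosen with earlier results of these data known. Alternatives were equal list sizes, other distances and overlaps, other rankings, a replicate block and leaving out each library.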

Additional observations from a re-analysis of the deposited data

How the results depend on the processing

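The count of 911 regions was 1463 at 25 kb, 496 at 100 kb and 146 when the distance was taken to any annotated gene, and it ran from 911 to 1630 with 1 library left out, the highest without TCF1 replicate 3. The rank difference between far-intergenic and other regions ran from -8.84 to -7.39 with 1 library left out, where p cannot go below 0.0625. It was -5.39 with lists of equal size, the alternative that moved it most. In place of 43 regions past the limma threshold (31 toward LEF1, 12 toward TCF1), there were 67 with ranks by −log10 q (54 toward LEF1) and 26 with lists of equal size (17 toward LEF1). With 1 library left out there were 7 to 39, of which 6 to 30 toward LEF1 and 1 to 9 toward TCF1. A replicate block gave 15 (12 toward LEF1, 3 toward TCF1). Libraries with the same number were not taken as pairs, since the labels name no shared animal or day. Their deviations correlated at 0.0322, 0.0623 and 0.0663, and those of the other pairs at -0.0672 to 0.0161. Each LEF1 and each TCF1 library correlated best with its own number in the titles, but library names in the labels carry other numbers. Whether the numbers mark pairs is thus unknown. The causes of these shifts were not tested. The difference in class rank between LEF1 and TCF1 ran from -6.17 to -4.05 over its alternatives, each at p = 0.1 in the exact permutation test. The sets of regions left out there (antigen receptor loci, lncRNA starts), and all alternatives of the comparison at lncRNA starts (5.12 to 11.0), were chosen after seeing the data. A comparison of motifs in windows around summits was not run, as no genome sequence was used here. Without read totals, the part of depth in any difference between lists cannot be told apart from that of the antibody.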
